A study of Rattus norvegicus with 8 samples.

Results

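The Rab, Vps, sorting nexin and coat genes of rat heart muscle cells were followed across low oxygen and eugenol. The set held the protein-coding genes whose names start with Vps, with Cop and a letter (Cops genes left out), with Sec and a pair of digits, or with Rab or Snx and a digit, in any of the 5 deposited tables. It counted 103 of the 8468 protein-coding genes in those tables, which hold 9025 genes in all. Of 175 RefSeq names that meet the same name rule, 103 had an entry, 1 of them under an older symbol (Rab7l1, now Rab29), and the other 72 are not analysed here, among them Copb2, Rab1b, Rab5a, Rab5b, Rab6a, Rab8a and Snx3. By role, 57 genes act in endosomal transport, 23 between the endoplasmic reticulum (ER) and the Golgi, and 23 elsewhere. A gene entered a table only with an unadjusted p under 0.05 there, so the set was selected for a difference in at least 1 comparison.

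Membrane transport steps commonly use a coat that buds the carrier, a Rab GTPase that marks the membrane, and a tether that captures the carrier at its target. On the endosomal side, early endosomes sort cargo back to the cell surface through recycling endosomes, back to the Golgi through retromer and sorting nexins, or on to lysosomes through ESCRT and the HOPS and CORVET tethers. On the secretory side, the COPII coat carries new proteins out of the ER and the COPI coat carries cargo back from the Golgi to the ER. In heart muscle these routes place ion channels, receptors and the glucose transporter GLUT4 on the surface membrane.

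The cells were ventricular cardiomyocytes of Sprague Dawley rats 2 to 3 days old, kept for 24 h either at normal oxygen (normoxia) or under ischemia, here 1% O2 and 5% CO2. Each oxygen level was combined with 10 µM eugenol, a phenol of clove oil, or with DMSO, the solvent. Each of the 4 combinations had 2 libraries, and the labels do not say that these came from separate isolations of cells. The p-values therefore measure the spread between these libraries, which may be technical, and the smallest two-sided p of an exact permutation test between 2 and 2 libraries is 0.333.

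The libraries held 14.7 to 17.7 M (megareads) in the total behind the FPKM values. Levels are given as RPM, reads per megaread of that total, and FPKM, which also divides by gene length, is used where different genes are compared. Of 12 cardiomyocyte markers 10 had counts in all 8 libraries, with 0 at zero reads. Their summed level was 64241 to 66517 RPM in normoxia and 33602 to 38788 RPM in ischemia. Myh7 alone of these was called higher with DMSO, at 0.40 in the authors' deposited table. The summed markers of other cells were lower in ischemia too. Fibroblast markers went from between 13889 and 16378 to between 6756 and 8222 RPM, smooth muscle markers from between 4302 and 5271 to between 1065 and 1275, endothelial markers from between 202 and 245 to between 72.03 and 95.4, and macrophage markers from between 76.2 and 87.9 to between 28.4 and 37.5. Among the fibroblast markers Dcn was the exception, called higher at 1.21 with DMSO and 1.39 with eugenol in the authors' deposited tables. In these bulk libraries fewer cells of a type and less RNA per cell cannot be told apart, and the part of these shifts in the results was not tested.

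Low oxygen moved most of the listed transport genes, and about as many up as down. In ischemia DMSO against normoxia DMSO, 94 of the 103 genes were listed, and 44 were called higher and 39 lower at an adjusted p under 0.05 in the authors' deposited table. That is 80.6% of the set, beside 75.5% of all protein-coding genes in any table and 40.9% of the 16406 genes the authors adjusted. The same question asked with eugenol in both arms rests on the other 4 libraries. There 80 of the 103 genes were listed and 36 were called higher and 34 lower in the authors' deposited table, 68.0% beside 73.8%, and 41.1% of the genes adjusted. Both shares lie near the background. Over both comparisons 34 genes were higher in both, 32 were lower in both, and 0 moved in opposite directions. A further 17 were called with DMSO alone and 4 (Rab24, Rab3a, Rab3ip and Rab43) with eugenol alone, which is no test of a difference between treatments. The same counts over all protein-coding genes are not given here, so the shared direction is not read as a trait of the set.

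In the DMSO comparison the endosomal class had 26 genes called higher and 22 lower of 57, and the ER-Golgi class 11 and 10 of 23. With eugenol the counts were 22 and 17, and 8 and 9. Across all protein-coding genes in any table, 36.3% were called higher and 39.2% lower with DMSO, and 35.2% and 38.6% with eugenol. These shares are also the background for the counts by role below. The median log2 fold change of the listed genes in the authors' deposited DMSO table was 0.47 for the endosomal and -0.02 for the ER-Golgi class, beside -0.27 for all listed genes. Few listed values lie near 0, so such a median can jump: it was 0.31 over the 94 listed members of the set, and -0.25 over the 75 with counts in all 8 libraries in the edgeR refit.

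**Figure D1:**
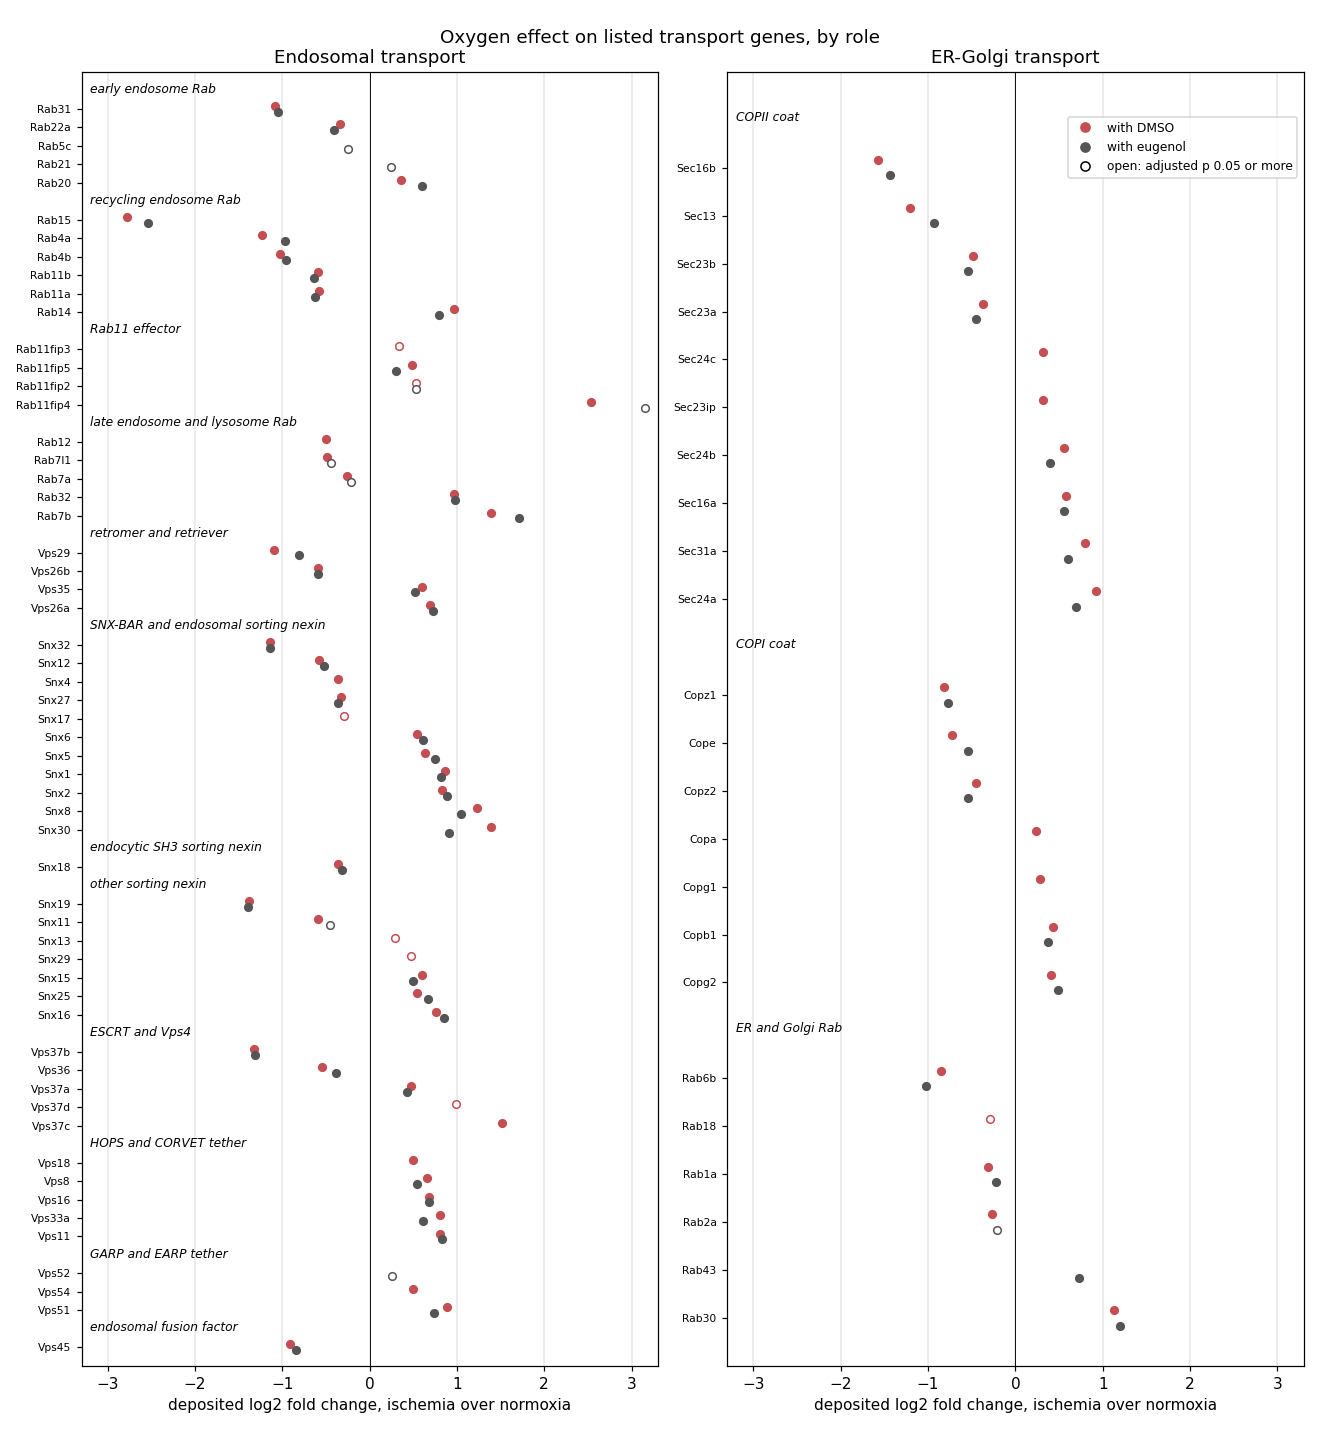
Deposited log2 fold change of ischemia over normoxia (x axis) for each listed endosomal gene (left) and ER-Golgi gene (right), grouped by role, with DMSO in red and with eugenol in grey; filled points passed an adjusted p of 0.05. The 5 HOPS and CORVET genes lie to the right of 0 and 5 of the 6 recycling Rabs to the left, from Rab15 at -2.78 to Rab14 at 0.96 with DMSO.

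The scaling set the zero of these values. Taken over the 6582 genes counted in every library, the middle log2 value of the DMSO comparison lay at -0.31 under the authors' totals, at -0.23 under TMM and at -0.08 under DESeq2 size factors, and that of the eugenol comparison at -0.30, -0.21 and -0.08. A fall of about 0.3 on the log2 scale thus lies at the middle of all genes fitted. They were preselected by the authors' p, so this middle does not stand for all genes expressed. An edgeR refit of the DMSO comparison gave 37 calls up and 38 down among 75 members under the authors' totals, 37 and 36 under TMM, and 37 and 25 under DESeq2 size factors. The genes fitted were those the authors had listed, so nearly all were called: 99.5%, 98.4% and 91% under these scalings, and 99.2%, 97.8% and 90.5% with eugenol. The number of risers stayed and the fallers lost calls. Both the TMM and the DESeq2 factors were computed from these same 6582 preselected genes. What factors computed from all genes would give was not tested. Among the 71 members named by rule, Copz2, Rab10, Rab1a, Rab22a, Rab23, Rab2a, Rab3a, Rab7a, Sec11a, Sec23a, Snx18 and Vps36 each lost at least 1 call with DESeq2 size factors. Other fallers described below, such as Snx12 and Snx27, were not part of that check.

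**Figure D2:**
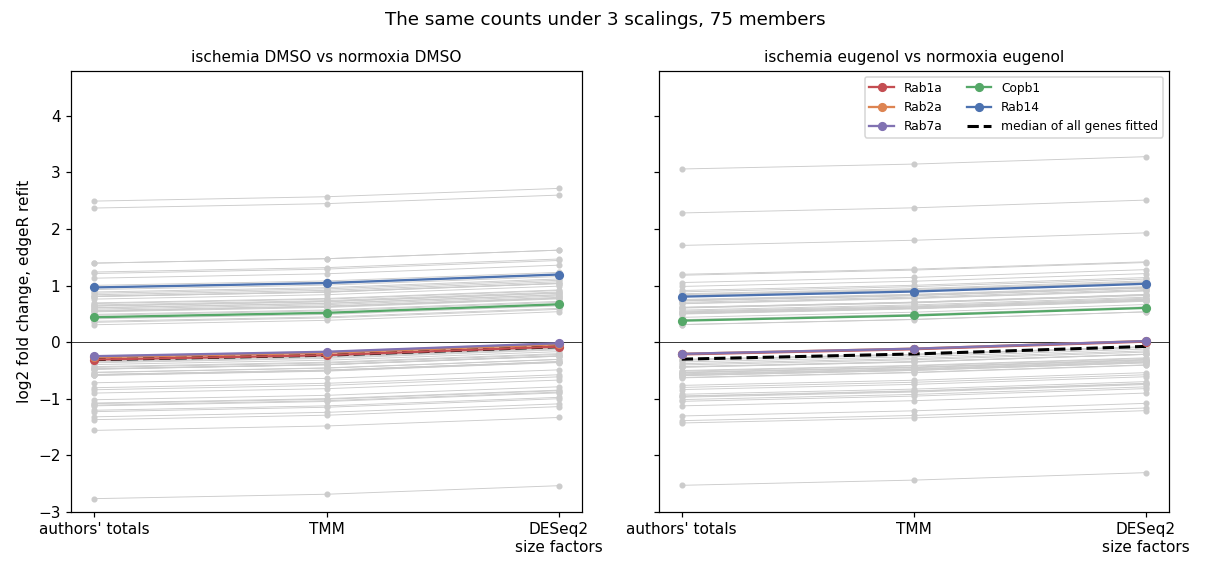
Log2 fold change of 75 members in the edgeR refit (y axis) under 3 scalings of the same counts (x axis), for the DMSO (left) and eugenol (right) comparisons of oxygen levels; the dashed line is the median of the 6582 genes fitted. Rab1a, Rab2a and Rab7a run along that median, at -0.31 with the authors' totals in the DMSO panel, while Rab14 and Copb1 stay above 0 throughout.

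Among the Rabs of early endosomes, Rab31 and Rab22a fell and Rab20 rose. Rab31, which acts between the Golgi and endosomes, went from 176 and 157 to 83.2 and 74.1 RPM with DMSO and from 162 and 159 to 74.5 and 80.4 with eugenol, so that every ischemia library lay below every normoxia library. Its log2 fold changes in the authors' deposited tables were -1.08 (adjusted p = 5.98e-18) and -1.05 (adjusted p = 5.67e-21). Rab22a, a Rab of clathrin-independent recycling, fell by less, from 86.4 and 81.1 to 69.6 and 62.9 RPM with DMSO and from 86.8 and 84.7 to 65.3 and 64.2 with eugenol. Rab20, found on early endosomes and phagosomes, went from 70.9 and 56.7 to 82.2 and 82.4 RPM with DMSO and from 58.9 and 62.8 to 85.1 and 99.5 with eugenol, and its libraries did not overlap between oxygen levels either, though without normoxia DMSO replicate 2 the DMSO call was lost at a log2 fold change of 0.22 in edgeR. Rab5c, a regulator of early endosome fusion, had 90.8 and 82.6 RPM in normoxia eugenol against 68.7 and 77.7 in ischemia eugenol, and Rab21, which moves integrins, 89.9 and 87.1 against 109 and 100.3. Neither passed the test in the authors' deposited table (adjusted p = 0.104 and 0.0822).

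Of the 6 Rabs of recycling endosomes in the tables, 5 fell in both comparisons, where 39.2% of protein-coding genes in any table were called lower with DMSO and 38.6% with eugenol. Rab15, which slows the return of cargo through early and recycling endosomes, fell furthest of all members listed. It went from 23.2 and 23.004 to 3.61 and 3.14 RPM with DMSO and from 25.5 and 21.9 to 3.44 and 4.73 with eugenol, or from between 322 and 395 reads per library to between 50 and 79. Its log2 fold changes in the authors' deposited tables were -2.78 (adjusted p = 1.41e-24) and -2.54 (adjusted p = 1.66e-20), with a standard error of 0.19 in the edgeR refit. The gene (ENSRNOG00000007364, chromosome 6, 99845954 to 99870024, minus strand as deposited) is annotated as protein-coding, and no genome build was named with the coordinates.

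Rab4a and Rab4b, of the fast recycling route, fell as a pair. Rab4a went from 34.9 and 31.96 to 14.99 and 13.4 RPM with DMSO and from 29.9995 and 33.5 to 15.7 and 16.9 with eugenol, and Rab4b from 35.96 and 41.2 to 19.3 and 18.6 RPM with DMSO and from 39.7 and 39.4 to 18.1 and 22.7 with eugenol. Rab11a and Rab11b, of the slower route through the recycling endosome, fell by less, Rab11a from 94.2 and 88.1 to 62.7 and 59.7 RPM with DMSO and from 89.03 and 84.6 to 50.9 and 61.6 with eugenol and Rab11b from 148 and 148 to 102 and 95.2 RPM with DMSO and from 152 and 144 to 88.6 and 102 with eugenol. Within both pairs the shares stayed close: Rab11a made up 31.4 and 30.1% of the summed FPKM of the Rab11 pair in the libraries of normoxia DMSO and 30.7 and 31.2% in those of ischemia DMSO, and Rab4a 43.5 and 38.1% and 38.1 and 36.4% of the Rab4 pair. Reads can be shared between such close paralogues, here and in the pairs that follow, which was not tested.

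Rab14, which links the Golgi with recycling endosomes and takes part in GLUT4 traffic, went the other way, from 81.9 and 74.98 to 163 and 144 RPM with DMSO and from 76.9 and 80.1 to 144 and 129.7 with eugenol. Its log2 fold changes in the authors' deposited tables were 0.96 (adjusted p = 2.58e-14) and 0.80 (adjusted p = 2.87e-11). Of the 4 effectors that tie Rab11 to its motors and tethers, 2 were called higher with DMSO and 0 lower. Rab11fip5 rose, from 137 and 151 to 199 and 206 RPM with DMSO and from 152 and 157 to 188 and 195 with eugenol. Rab11fip2 had 8.88 and 8.704 RPM in normoxia DMSO against 11.9 and 13.6 in ischemia DMSO, and Rab11fip3 35.9 and 34.8 against 44.5 and 45.2, which did not pass in the authors' deposited table (adjusted p = 0.0941 and 0.0583). Rab11fip4 was called higher with DMSO on 4 and 3 reads in normoxia against 24 and 18 in ischemia.

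**Figure D3:**
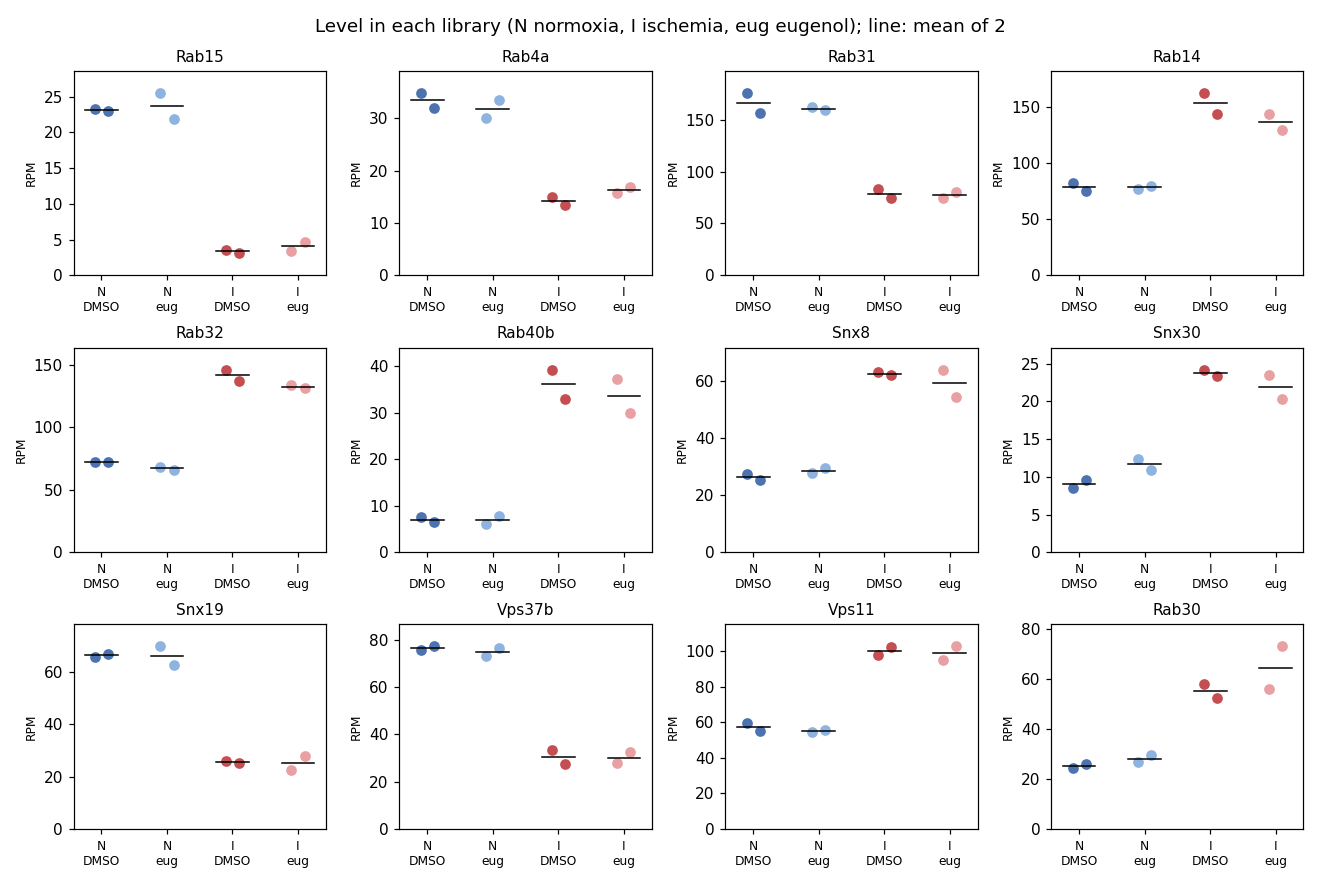
Level in RPM (y axis, from 0) of 12 members in each of the 8 libraries, by group (x axis), with a line at the mean of the 2 libraries. In every panel the 4 ischemia libraries lie apart from the 4 normoxia libraries, as for Rab15 at 3.14 to 4.73 against 21.9 to 25.5 RPM, while DMSO and eugenol libraries at 1 oxygen level lie close together. The 12 were picked from called members whose libraries did not overlap, so this separation is not a result about the set.

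The late endosome and lysosome Rabs were split. Rab7a, the central Rab of late endosomes, had the highest FPKM of this role and moved least. It went from 271 and 249.6 to 226 and 211 RPM with DMSO and from 246 and 253 to 211 and 221 with eugenol, with log2 fold changes of -0.25 (adjusted p = 0.0329) and -0.21 (adjusted p = 0.0513) in the authors' deposited tables. These values do not lie below the median of the genes fitted, which were preselected by the authors' p. With DESeq2 size factors the eugenol value turned to 0.02 in the edgeR refit, and the DMSO call was lost without ischemia DMSO replicate 2 (-0.20) or normoxia DMSO replicate 1 (-0.19). Rab7b, which returns cargo from late endosomes to the Golgi, rose from 3.08 and 2.74 to 7.95 and 7.404 RPM with DMSO and from 2.72 and 2.72 to 7.996 and 9.82 with eugenol, and its share of the summed FPKM of Rab7a and Rab7b rose from 1.002 and 0.967% to 3.03 and 3.02% in the DMSO libraries. Rab32, a Rab of lysosome-related organelles and mitochondria, rose from 72.5 and 71.8 to 146 and 137 RPM with DMSO and from 68.02 and 65.96 to 134 and 132 with eugenol, with a log2 fold change of 0.97 in the authors' deposited DMSO table (adjusted p = 6.61e-16). Rab12, which sends the transferrin receptor to lysosomes, fell from 54.03 and 42.2 to 33.98 and 34.4 RPM with DMSO. Rab7l1, known as a partner of the kinase Lrrk2, fell from 27.2 and 28.4 to 17.5 and 22.3 RPM with DMSO and missed the threshold with eugenol in the authors' deposited table (0.0672 as adjusted p).

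Of retromer, the complex that retrieves cargo from endosomes, 2 subunit genes rose and 2 fell in both comparisons. Vps35, its scaffold, rose from 184 and 164 to 273 and 256 RPM with DMSO and from 174 and 169 to 257 and 237 with eugenol, and Vps29, which sits at the other end of the scaffold, fell from 83.5 and 71.002 to 36.01 and 36.6 RPM with DMSO and from 71.8 and 66.03 to 35.9 and 43.04 with eugenol. The alternative Vps26 subunits moved against each other. Vps26a rose from 61.2 and 52.2 to 96.03 and 87.2 RPM with DMSO and from 55.2 and 56.5 to 91.96 and 93.03 with eugenol, while Vps26b fell from 141 and 128 to 87.7 and 92.2 RPM with DMSO and from 139 and 139 to 93.7 and 91.8 with eugenol. The log2 fold changes in the authors' deposited tables were 0.69 (adjusted p = 2.81e-06) and 0.72 (1.82e-08) for Vps26a, and -0.59 (2.41e-06) and -0.59 (2.4e-07) for Vps26b. In FPKM the Vps26a share of the pair rose from 52.7 and 51.02% in the 2 normoxia DMSO libraries to 73.7 and 70.8% in the ischemia DMSO libraries, and from 50.4 and 51.1% to 71.6 and 72.2% with eugenol. In FPKM the pair was thus near balance in normoxia and mostly Vps26a in ischemia. In read counts, not divided by gene length, the Vps26a share rose from 30.3 and 28.9% in normoxia DMSO to 52.3 and 48.6% in ischemia DMSO. The level of the share thus rests on the deposited gene lengths.

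The windows at the starts of both Vps26 genes are given as a description, and a part of them in the opposite moves was not tested. They run from 250 bases before to 50 bases after the RefSeq start (GRCr8), chr20:30976840-30977139, minus strand, and chr8:33696083-33696382, minus strand, and capitals mark CACGTG, the core bound by E-box factors such as TFEB and its relatives. The Vps26a window holds it at -33 and -9, counted to the first base of the motif with -1 as the last base before the start, and the Vps26b window not at all.
Vps26a: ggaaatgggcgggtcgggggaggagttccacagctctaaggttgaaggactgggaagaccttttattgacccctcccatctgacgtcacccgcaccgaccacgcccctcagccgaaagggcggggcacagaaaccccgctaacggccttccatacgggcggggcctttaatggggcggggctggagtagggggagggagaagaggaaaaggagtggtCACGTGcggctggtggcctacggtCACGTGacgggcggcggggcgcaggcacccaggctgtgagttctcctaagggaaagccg
Vps26b: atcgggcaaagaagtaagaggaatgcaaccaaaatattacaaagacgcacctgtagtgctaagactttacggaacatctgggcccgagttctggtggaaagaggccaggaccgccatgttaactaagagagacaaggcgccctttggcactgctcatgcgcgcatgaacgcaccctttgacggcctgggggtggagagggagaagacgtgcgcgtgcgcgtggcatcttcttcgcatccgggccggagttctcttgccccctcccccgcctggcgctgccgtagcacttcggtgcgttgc

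The sorting nexins that form tubules with retromer rose, apart from Snx32, the one with the lowest FPKM. Snx1 and Snx2, which pair with Snx5 or Snx6, went from 37.4 and 43.02 to 74.1 and 72.2 RPM with DMSO and from 40.7 and 36.01 to 69.9 and 66.2 with eugenol, and from 54.1 and 46.9 to 89.7 and 90.8 RPM with DMSO and from 45.4 and 45.4 to 85.5 and 82.6 with eugenol. Snx5 rose from 64.2 and 67.7 to 106 and 99.9 RPM with DMSO and from 62.7 and 53.4 to 94.9 and 101 with eugenol, and Snx6 from 49.3 and 45.6 to 73.6 and 65.3 RPM with DMSO and from 45.97 and 39.6 to 66.3 and 64.7 with eugenol. Snx32, a paralogue of Snx5 and Snx6, fell from 5.801 and 5.66 to 2.54 and 2.698 RPM with DMSO and from 6.98 and 6.94 to 3.19 and 3.17 with eugenol. It made up 7.86 and 7.705% of the summed FPKM of Snx5, Snx6 and Snx32 in normoxia DMSO, as against 2.31 and 2.66% in ischemia DMSO, and 9.69 and 11.1% and 3.197 and 3.11% with eugenol.

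Snx8 and Snx30 had the largest rises of the endosomal sorting nexins. Snx8, of endosome-to-Golgi transport, rose from 27.6 and 25.4 to 62.9 and 62.2 RPM with DMSO and from 27.7 and 29.4 to 63.97 and 54.5 with eugenol, with log2 fold changes of 1.24 (adjusted p = 2.12e-15) and 1.05 (adjusted p = 1.27e-10) in the authors' deposited tables. Snx30, a partner of Snx4 in recycling, rose from 8.52 and 9.57 to 24.2 and 23.4 RPM with DMSO and from 12.3 and 10.96 to 23.6 and 20.4 with eugenol, and Snx4 itself fell from 68.1 and 63.9 to 52.1 and 51.01 RPM with DMSO. Snx27, which hands cargo to retromer, and Snx12 fell, Snx27 from 89.9 and 91.1 to 72.8 and 72.3 RPM with DMSO and from 101 and 91.9 to 80.3 and 70.9 with eugenol and Snx12 from 80.1 and 76.3 to 53.5 and 51.3 RPM with DMSO and from 82.5 and 73.9 to 51.7 and 57.7 with eugenol. Snx17, the cargo adaptor of the retriever complex, had 75.3 and 73.4 RPM in normoxia DMSO against 62.3 and 59.7 in ischemia DMSO (adjusted p = 0.0555 in the authors' deposited table).

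Of the other sorting nexins, Snx19 fell most and 3 rose in both comparisons. Snx19, anchored in the ER membrane, went from 65.7 and 66.8 to 25.9 and 25.3 RPM with DMSO and from 69.6 and 62.4 to 22.6 and 27.8 with eugenol, with log2 fold changes of -1.38 (adjusted p = 1.01e-19) and -1.40 (adjusted p = 2.45e-17) in the authors' deposited tables. Snx15, Snx16 and Snx25 rose, with log2 fold changes of 0.60, 0.76 and 0.54 with DMSO and 0.50, 0.85 and 0.67 with eugenol in the authors' deposited tables. Snx11 fell with DMSO, from 19.7 and 19.1 to 12.2 and 13.6 RPM. Snx18, an SH3 sorting nexin of endocytosis, fell from 107 and 124 to 95.4 and 85.5 RPM with DMSO and from 125 and 112 to 89.8 and 102 with eugenol, a call lost with DESeq2 size factors in both comparisons and with TMM in the eugenol one; without ischemia DMSO replicate 2 or normoxia DMSO replicate 2 it was also lost, at -0.28 and -0.25, and without replicate 1 of ischemia eugenol or of normoxia eugenol, at -0.22 each (edgeR log2 fold change). Snx13 and Snx29 did not pass with DMSO (adjusted p = 0.057 and 0.0806 in the authors' deposited table).

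**Figure D4:**
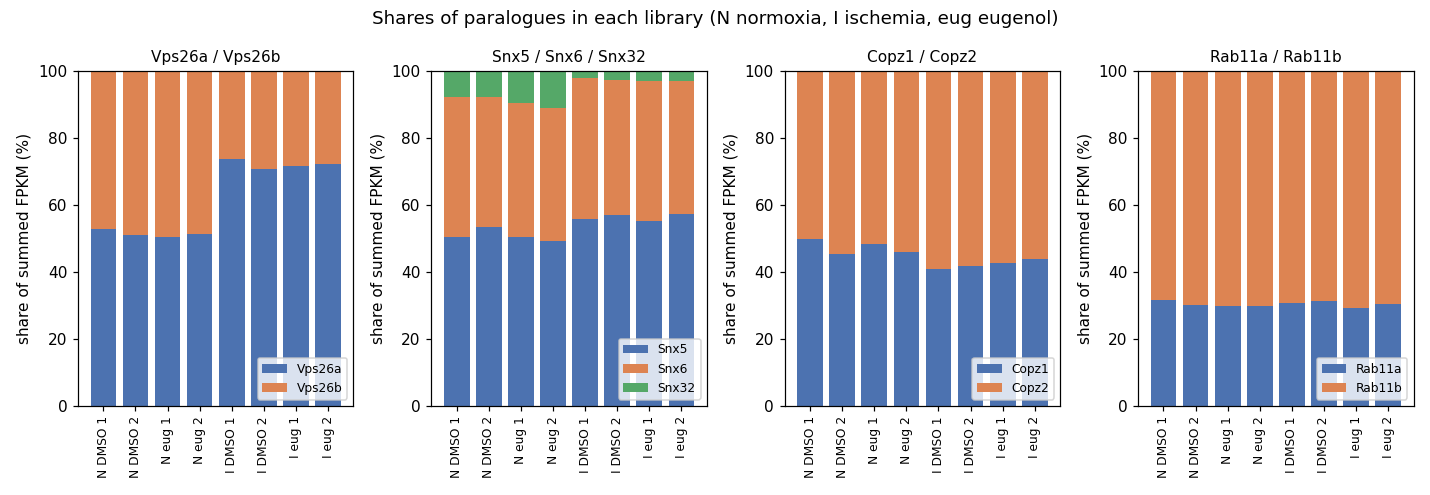
Share of the summed FPKM (y axis, %) of each paralogue in each library (x axis) for Vps26, the Snx5 group, Copz and Rab11. The Vps26a share lies between 50.4 and 52.7% in the 4 normoxia libraries and between 70.8 and 73.7% in the 4 ischemia libraries, the Snx32 share falls, and the Rab11a share stays between 29.3 and 31.4%.

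The ESCRT genes, which sort ubiquitin-tagged receptors into endosomes, moved both ways, also within the Vps37 family. Vps37b fell from 75.7 and 77.3 to 33.5 and 27.6 RPM with DMSO and from 73.4 and 76.5 to 27.8 and 32.7 with eugenol, with log2 fold changes of -1.33 (adjusted p = 9.67e-18) and -1.31 (adjusted p = 2.06e-18) in the authors' deposited tables. Vps37a rose from 39.8 and 38.4 to 53.1 and 55.5 RPM with DMSO and from 36.3 and 40.1 to 54.3 and 49.2 with eugenol. The Vps37a share of the summed FPKM of Vps37a, Vps37b and Vps37c rose from 43.2 and 41.7% in normoxia DMSO to 68.8 and 70.4% in ischemia DMSO. Vps36, of ESCRT-II, fell from 45.1 and 48.2 to 28.9 and 35.4 RPM with DMSO and from 43.3 and 46.7 to 36.4 and 32.6 with eugenol. Vps37c was called higher with DMSO on uneven libraries, 1.51 and 1.803 RPM in normoxia DMSO against 2.09 and 7.47 in ischemia DMSO, and ischemia eugenol was as uneven with 7.43 and 2.28. Vps37d, at 3.08 and 2.18 RPM in normoxia DMSO against 5.86 and 4.58 in ischemia DMSO, did not pass (adjusted p = 0.0575 in the authors' deposited table).

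Of the tethers of endosomes and lysosomes, the 5 HOPS and CORVET genes in the tables were called higher with DMSO and 0 lower, where 36.3% of protein-coding genes in any table were called higher. Vps39 and Vps41, the subunits found in HOPS alone, are not analysed here. Vps11, Vps16, Vps18 and Vps33a form the core shared by both tethers, and Vps8 belongs to CORVET, which acts on early endosomes. Vps11 rose from 59.4 and 54.8 to 97.5 and 102 RPM with DMSO and from 54.6 and 55.9 to 95.02 and 103 with eugenol, with log2 fold changes of 0.80 (adjusted p = 1.5e-09) and 0.83 (adjusted p = 9.31e-11) in the authors' deposited tables. Vps33a, the subunit that binds SNAREs, rose from 18.4 and 14.2 to 27.5 and 29.99 RPM with DMSO and from 16.9 and 18.7 to 27.7 and 26.7 with eugenol, and Vps16, its partner, from 39.2 and 44.8 to 65.5 and 69.2 RPM with DMSO and from 41.3 and 42.4 to 67.7 and 66.99 with eugenol. Vps8 rose from 29.6 and 27.8 to 44.01 and 46.4 RPM with DMSO and from 28.3 and 35.2 to 50.04 and 42.7 with eugenol, and Vps18 from 19.7 and 20.9 to 30.3 and 27.3 RPM with DMSO. With eugenol Vps18 was not listed and the other 4 were called higher.

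The start windows of the 4 tether genes that hold CACGTG are shown as a description, and a part of the motif in their rise was not tested. Of the 5 HOPS and CORVET genes 4 hold it, beside 26.5% of the 49 endosomal genes with a window, 4.76% of 21 ER-Golgi genes, 9.95% of the protein-coding genes in any table and 7.08% of all windows. Vps18, which was also called higher with DMSO, does not hold it. Of the 40 genes called higher with DMSO that have a window 10 hold it, and of the 33 called lower 3 do, namely Rab31, Snx18 and Vps37b. A longer palindrome of 10 bases around CACGTG, the CLEAR element of lysosomal genes, was found in Rab21, Vps26a and Vps33a, 3.37% of the 89 members with a window beside 0.629% of the protein-coding genes in any table. All motifs were searched on both strands, and a match is a description of these letters. The windows are chr8:53595328-53595627, minus strand, chr3:138075460-138075759, plus strand, chr12:38685274-38685573, plus strand, and chr11:93138521-93138820, minus strand, from RefSeq (GRCr8), with CACGTG in capitals. It begins at -25 and -4 in Vps11, at -71 in Vps16, at -46 and -30 in Vps33a and at -2 in Vps8.
Vps11: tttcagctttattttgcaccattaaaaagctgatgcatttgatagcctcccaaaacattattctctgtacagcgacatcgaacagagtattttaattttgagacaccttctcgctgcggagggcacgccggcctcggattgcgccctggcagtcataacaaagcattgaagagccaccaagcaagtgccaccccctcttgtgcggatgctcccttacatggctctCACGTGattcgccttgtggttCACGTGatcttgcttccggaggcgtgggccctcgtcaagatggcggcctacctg
Vps16: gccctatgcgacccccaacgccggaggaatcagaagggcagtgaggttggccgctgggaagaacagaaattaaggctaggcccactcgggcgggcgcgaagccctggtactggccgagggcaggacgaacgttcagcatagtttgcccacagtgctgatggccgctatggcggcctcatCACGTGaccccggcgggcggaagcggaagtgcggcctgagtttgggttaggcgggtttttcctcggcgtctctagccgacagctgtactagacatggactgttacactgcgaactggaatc
Vps33a: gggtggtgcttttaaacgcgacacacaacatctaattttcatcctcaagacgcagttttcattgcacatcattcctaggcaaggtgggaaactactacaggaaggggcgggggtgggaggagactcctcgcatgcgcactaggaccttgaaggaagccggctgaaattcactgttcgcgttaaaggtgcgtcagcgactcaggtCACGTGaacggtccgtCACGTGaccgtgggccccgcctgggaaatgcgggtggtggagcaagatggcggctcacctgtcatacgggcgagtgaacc
Vps8: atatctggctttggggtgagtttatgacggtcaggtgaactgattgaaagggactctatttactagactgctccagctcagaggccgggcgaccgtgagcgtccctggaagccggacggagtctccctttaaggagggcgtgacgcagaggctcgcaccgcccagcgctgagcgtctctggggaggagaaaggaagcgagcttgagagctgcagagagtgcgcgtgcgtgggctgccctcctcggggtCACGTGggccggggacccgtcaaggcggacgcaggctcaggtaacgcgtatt

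Of the GARP tether, which captures carriers from endosomes at the Golgi, 3 genes were in the tables, and both of those listed with DMSO were called higher. Vps51 rose from 33.96 and 35.6 to 59.6 and 68.9 RPM with DMSO and from 36.3 and 35.9 to 61.4 and 59.5 with eugenol, and Vps54 from 36.8 and 36.2 to 49.8 and 53.9 RPM with DMSO. Vps52 had 83.1 and 79.2 RPM in normoxia eugenol against 98.8 and 95.2 in ischemia eugenol (adjusted p = 0.0651 in the authors' deposited table). The annotation of Vps51 overlaps that of Tm7sf2 on the same strand by 1066 bases, and Tm7sf2 changed by -0.78 against 0.88 for Vps51 in the authors' deposited DMSO table, and reads of the overlap can be counted to either. Vps45, which helps SNAREs fuse endosomes, fell from 23.3 and 21.8 to 11.2 and 12.9 RPM with DMSO and from 22.4 and 23.6 to 13.2 and 12.4 with eugenol.

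Endosomal machinery whose names fall outside the rule was called in both directions too. Of 83 such genes on a list made for this purpose, 51 were in any table, and 21 were called higher and 19 lower with DMSO, 22 and 20 with eugenol. The 4 EHD ATPases, which shape recycling tubules, were lower in both comparisons. With DMSO Ehd4 fell from 1040.1 ± 67.3 to 379 ± 10.2 RPM (mean ± SD, n = 2, as for the list genes that follow), Ehd3 from 21.7 ± 0.995 to 8.94 ± 0.930 RPM, Ehd2 from 98.3 ± 11.7 to 56.05 ± 2.99 RPM and Ehd1 from 93.3 ± 0.444 to 57.2 ± 6.03 RPM. Appl1, an effector of Rab5, rose from 38.6 ± 5.54 to 82.9 ± 4.795 RPM, and Rabgef1, which activates Rab5, from 24.3 ± 1.202 to 45.6 ± 0.398 RPM. The lipid kinase Pik3c3 rose from 18.1 ± 1.101 to 36.2 ± 1.44 RPM. Rin2 and Rin3, which also activate Rab5, were lower, Rin3 from 37.2 ± 3.998 to 20.9 ± 2.91 RPM. Hgs, which brings ubiquitin-tagged cargo to ESCRT, rose from 85.8 ± 0.226 to 173 ± 1.03 RPM, while Snf8, the partner of Vps36 in ESCRT-II, fell from 45.9998 ± 3.18 to 25.4 ± 0.0429 RPM. Tbc1d15, which turns off Rab7, rose from 52.9 ± 4.27 to 136 ± 3.34 RPM.

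In the COPII coat, which buds carriers from the ER, 6 genes were called higher and 4 lower with DMSO, and the inner and outer layers each held both directions. A split both ways was also seen over all protein-coding genes in any table, with 36.3% called higher and 39.2% lower. In the inner layer the cargo-binding Sec24 subunits in the tables rose and their Sec23 partners fell with DMSO. Sec24d is not analysed here, and Sec24c was not listed with eugenol. Sec24a rose from 37.6 and 36.1 to 72.5 and 67.7 RPM with DMSO and from 42.99 and 47.9 to 74.8 and 73.04 with eugenol and Sec24b from 61.2 and 66.2 to 90.3 and 97.7 RPM with DMSO and from 66.1 and 64.3 to 84.6 and 86.99 with eugenol, and Sec24c from 152 and 167 to 201 and 198 RPM with DMSO. Sec23a fell from 74.8 and 76.6 to 61.5 and 55.8 RPM with DMSO and from 79.5 and 82.2 to 56.7 and 62.1 with eugenol, and Sec23b from 41.7 and 43.1 to 32.7 and 28.05 RPM with DMSO and from 42.2 and 37.7 to 26.5 and 28.6 with eugenol. The log2 fold changes in the authors' deposited DMSO table were 0.93 (adjusted p = 3.9e-10), 0.56 (4.82e-05) and 0.32 (0.00763) for Sec24a, Sec24b and Sec24c, and -0.37 (0.0132) and -0.48 (0.00918) for the Sec23 pair. The DMSO call of Sec23a was lost with DESeq2 size factors.

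In the outer cage Sec31a rose and Sec13, its partner there, fell. Sec31a went from 232 and 254 to 412 and 436 RPM with DMSO and from 265 and 275 to 421 and 403 with eugenol, and Sec13 from 72.5 and 82.1 to 38.1 and 28.7 RPM with DMSO and from 69.1 and 70.4 to 32.5 and 40.9 with eugenol. In FPKM, which allows levels of different genes to be set side by side, Sec31a had 50.9 and 55.8 and Sec13 57.2 and 64.8 in normoxia DMSO, and 90.6 and 95.9 against 30.1 and 22.7 in ischemia DMSO. The levels lay close together in normoxia and far apart in ischemia. The log2 fold changes in the authors' deposited tables were 0.80 (adjusted p = 3.09e-15) and 0.60 (6.99e-11) for Sec31a, and -1.21 (9.11e-13) and -0.93 (5.27e-09) for Sec13. Sec13 also belongs to the nuclear pore.

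The organisers of ER exit sites also moved both ways. Sec16a, the scaffold of these sites, rose from 125 and 133 to 182 and 205 RPM with DMSO and from 146 and 152 to 232 and 209.9 with eugenol, and the scarcer Sec16b fell from 8.58 and 10.7 to 3.61 and 2.89 RPM with DMSO and from 10.5 and 12.2 to 3.06 and 5.33 with eugenol. Sec23ip, which links the coat to exit sites, rose from 63.2 and 66.5 to 78.8 and 83.3 RPM with DMSO. For each of the 83 members called with DMSO, coat genes included, the libraries of the 2 oxygen levels did not overlap. How often this holds among all called genes is not given here, so it is not read as a trait of these members.

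**Figure D5:**
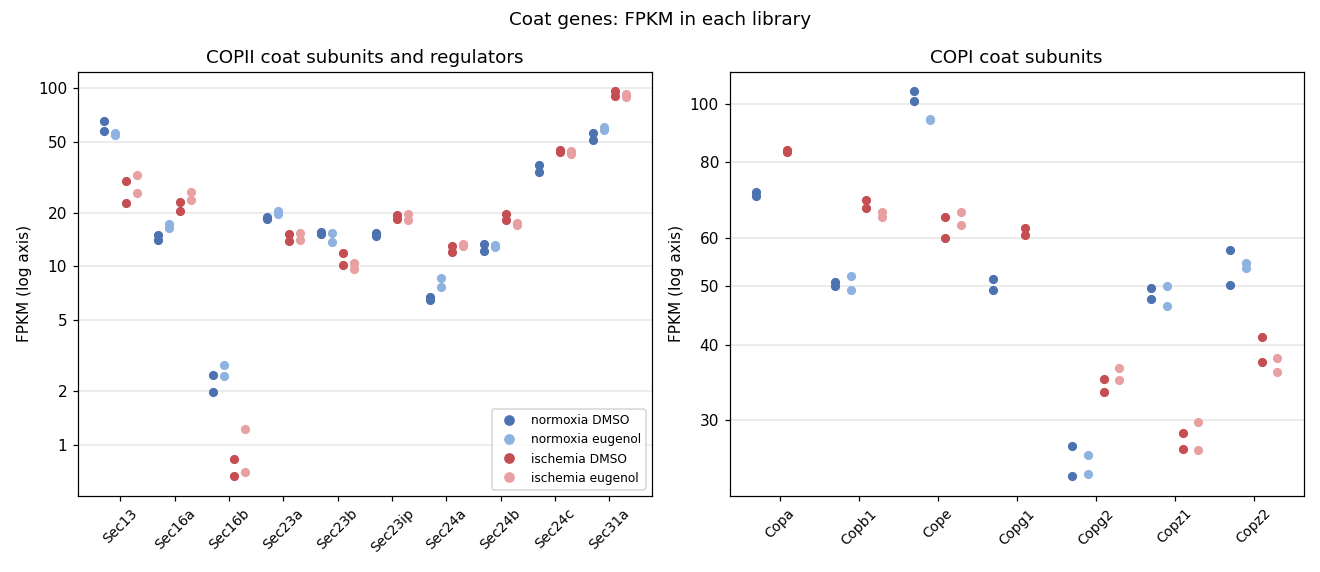
FPKM (y axis, log scale) of the COPII genes (left) and COPI genes (right) in each library, coloured by group; genes without a table entry in a eugenol group have no point there. Sec31a and Sec13 start near each other in normoxia and part in ischemia, and Cope, Copz1 and Copz2 fall while the other COPI genes rise.

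In the COPI coat 4 genes were called higher and 3 lower with DMSO, and 2 and 3 with eugenol, where Copa and Copg1 were not listed. Over all protein-coding genes in any table the shares were 36.3% higher and 39.2% lower with DMSO, and 35.2% and 38.6% with eugenol. Copb2, another large subunit, is not analysed here. Copa, the alpha subunit of the outer layer (ENSRNOG00000006247, chromosome 13, 90467265 to 90508932, plus strand as deposited), rose from 311 and 316 to 372 and 368 RPM with DMSO, and Copg1, a gamma subunit, from 209 and 218 to 258 and 265 RPM. Copb1, the beta subunit, rose from 166 and 169 to 231 and 224 RPM with DMSO and from 173 and 164 to 217 and 221 with eugenol, and Copg2 from 71.2 and 63.3 to 87.1 and 91.8 RPM with DMSO and from 63.9 and 68.8 to 95.8 and 91.2 with eugenol. Their log2 fold changes in the authors' deposited DMSO table lay between 0.23 and 0.43, with adjusted p between 5.49e-05 and 0.0269. Cope, the epsilon subunit that braces Copa, fell from 121 and 117 to 75.2 and 69.3 RPM with DMSO and from 108 and 109 to 76.5 and 72.9 with eugenol. The zeta subunits fell, Copz1 from 116 and 111 to 66.8 and 62.995 RPM with DMSO and from 117 and 108 to 62.8 and 69.6 with eugenol and Copz2 from 45.9 and 52.3 to 37.6 and 34.2 RPM with DMSO and from 49.01 and 49.8 to 32.99 and 34.8 with eugenol, and the DMSO call of Copz2 was lost with DESeq2 size factors. The log2 fold changes in the authors' deposited DMSO table were -0.73 (adjusted p = 8.83e-09), -0.81 (1.38e-10) and -0.45 (0.0106). Copz1 made up 49.7 and 45.4% of the pair's FPKM in normoxia DMSO, as against 40.95 and 41.8% in ischemia DMSO. Arcn1, the delta subunit, whose name lies outside the rule, was higher from 275 ± 4.88 to 351 ± 4.55 RPM.

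Among ER-Golgi members the genes that rose were longer, in the median, than those that fell. The median deposited gene length was 4432 bases for the 11 ER-Golgi genes called higher with DMSO and 2091 for the 10 called lower, beside 2783 and 2334 over all protein-coding genes called. With eugenol the medians were 3942 and 2340 for ER-Golgi members. For endosomal members they were 2616 and 2361 with DMSO and 2464 and 2520 with eugenol. Across the 22 listed ER-Golgi genes Spearman's rho between length and log2 fold change was 0.40 with DMSO, and 0.13 across the 18 listed with eugenol, beside 0.10 and 0.04 for all protein-coding genes listed. These correlations run across genes of the same libraries, which are not independent replicates, and the part of length in the result was not tested.

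Start windows of a COPI and a COPII gene that rose are given for a motif they share. TGACGTG was found in 4 of 21 ER-Golgi windows (19.0%), those of Copa, Copb1, Sec16a and Sec23a, beside 2.04% of endosomal windows, 2.85% of protein-coding genes in any table and 2.02% of all windows. Sec23a was lower and the other 3 higher in ischemia DMSO. Its inner letters ACGTG, which TGACGTG and CACGTG both contain, were found in 71.4% of ER-Golgi and 49.0% of endosomal windows, beside 26.7% of protein-coding genes in any table. GCGTG, the other core of hypoxia response elements, was found in 50.6% of members, beside 51.6%. The ER stress response element ERSE was found in 0 of the 89 members with a window and in 0.0765% of all windows. The windows are chr1:177872791-177873090, minus strand, and chr3:29662270-29662569, minus strand, from RefSeq (GRCr8), and capitals mark TGACGTG on either strand, at -5 in Copb1 and -167 in Sec16a.
Copb1: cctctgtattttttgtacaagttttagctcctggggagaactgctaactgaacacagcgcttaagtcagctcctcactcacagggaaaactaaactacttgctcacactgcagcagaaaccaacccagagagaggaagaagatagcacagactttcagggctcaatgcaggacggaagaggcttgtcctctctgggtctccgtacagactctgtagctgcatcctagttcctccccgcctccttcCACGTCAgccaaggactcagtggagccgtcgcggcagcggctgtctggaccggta
Sec16a: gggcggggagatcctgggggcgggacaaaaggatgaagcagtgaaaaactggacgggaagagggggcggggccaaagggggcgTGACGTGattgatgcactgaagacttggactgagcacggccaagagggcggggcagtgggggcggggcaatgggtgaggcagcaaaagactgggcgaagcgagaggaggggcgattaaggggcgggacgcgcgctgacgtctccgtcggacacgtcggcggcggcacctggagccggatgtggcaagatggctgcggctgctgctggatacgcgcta

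Of the 6 Rabs between ER and Golgi, Rab30 rose and Rab1a, Rab2a and Rab6b fell with DMSO. Rab1a, which directs ER carriers to the Golgi, went from 259.9 and 271 to 225 and 203 RPM with DMSO and from 260.2 and 242 to 213 and 219 with eugenol, and Rab2a, of the intermediate compartment, from 177 and 162 to 146 and 136 RPM with DMSO and from 161 and 162 to 142 and 137 with eugenol. Their log2 fold changes in the authors' deposited DMSO table, -0.31 (adjusted p = 0.00624) and -0.27 (0.0323), lie near the -0.31 median of the genes fitted. Those genes were preselected by the authors' p and do not stand for all genes expressed. With DESeq2 size factors both lost their DMSO calls, and the eugenol values turned to 0.01 and 0.02 in the edgeR refit, as against -0.22 (adjusted p = 0.0448) and -0.21 (0.0754) in the authors' deposited table. Without ischemia DMSO replicate 2 or normoxia DMSO replicate 1 Rab2a was no longer called (-0.22 and -0.21 with DMSO), nor was Rab1a without replicate 1 of ischemia eugenol or of normoxia eugenol (-0.20 and -0.17 with eugenol, edgeR). Rab30, a Golgi Rab, rose from 24.4 and 25.9 to 57.8 and 52.3 RPM with DMSO and from 26.6 and 29.6 to 56.04 and 72.98 with eugenol, with log2 fold changes of 1.13 (adjusted p = 8.15e-12) and 1.19 (adjusted p = 8.56e-12) in the authors' deposited tables. Rab6b, of Golgi-to-ER return, fell from 9.85 and 8.52 to 5.69 and 4.52 RPM with DMSO and from 9.698 and 10.8 to 4.998 and 5.09 with eugenol. Rab43, another Golgi Rab, was called higher with eugenol, from 7.95 and 7.96 to 13.7 and 12.7 RPM. Rab18, of ER and lipid droplets, had 88.05 and 85.99 RPM in normoxia DMSO against 75.8 and 66.7 in ischemia DMSO (adjusted p = 0.0534 in the authors' deposited table).

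Other ER-Golgi machinery was called in both directions. Of 81 genes listed outside the name rule 52 were in any table, with 13 called higher and 29 lower with DMSO and 14 and 26 with eugenol, and the median log2 fold change of those in the authors' deposited tables was -0.35 and -0.37, beside -0.27 for all listed genes. Among cargo receptors, picked from the list after its values were seen, Cnih1 fell from 132 ± 0.657 to 68.7 ± 4.07 RPM and Tmed7, of the p24 family, from 173 ± 9.66 to 110.1 ± 12.5 RPM. Tmed2, Tmed9, Tmed10, Lman1 and Lman2 were also called lower, at -0.39, -0.30, -0.31, -0.33 and -0.37 in the authors' deposited DMSO table. The median of the genes fitted, which were preselected by the authors' p, was -0.31. Sar1a and Sar1b, the GTPases that start COPII budding, were lower, Sar1a from 298 ± 5.72 to 201 ± 13.8 RPM and Sar1b from 88.99 ± 12.8 to 61.7 ± 4.56 RPM. Trappc2, of the TRAPP tether, fell from 17.5 ± 3.25 to 4.35 ± 0.414 RPM, and the fusion SNARE Gosr2 from 89.8 ± 1.92 to 51.6 ± 3.26 RPM. Trappc1, Trappc3 and Trappc5 were also called lower with DMSO, and Trappc8 higher. Of other SNAREs on the list, Bet1 and Ykt6 were called lower and Gosr1 and Stx5 higher. Of the golgins, long tethers of the Golgi, Golga4 rose from 197 ± 0.454 to 441 ± 4.27 RPM, Golga3 from 47.7 ± 0.0474 to 99.1 ± 6.72 RPM and Golga2 from 109.9 ± 3.25 to 177 ± 1.04 RPM, and Arfgap3, which acts on the COPI switch, rose from 47.4 ± 1.17 to 114 ± 6.36 RPM.

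Of the 23 genes outside both classes, 7 were called higher and 7 lower with DMSO, and 6 and 8 with eugenol. Rab40b, a Rab that forms part of a ubiquitin ligase, had the largest rise among the members with at least 5 RPM. It went from 7.55 and 6.404 to 39.3 and 32.9 RPM with DMSO and from 6.14 and 7.69 to 37.3 and 30.1 with eugenol, with log2 fold changes of 2.37 (adjusted p = 2.66e-26) and 2.28 (adjusted p = 1.82e-22) in the authors' deposited tables, at ENSRNOG00000036661, chromosome 10, 110557729 to 110585376, minus strand as deposited. The lipid transfer proteins Vps13a and Vps13c, which bridge organelles, rose, Vps13a from 17.3 and 18.8 to 33.9 and 38.4 RPM with DMSO and from 21.1 and 19.8 to 34.2 and 33.7 with eugenol and Vps13c from 27.5 and 23.004 to 54.04 and 63.2 RPM with DMSO and from 23.5 and 29.95 to 59.97 and 61.1 with eugenol. The third, Vps13b, did not pass with DMSO (adjusted p = 0.0513 in the authors' deposited table). Rab3gap2, a regulator of Rab3 and Rab18, rose from 72.6 and 89.8 to 127 and 125 RPM with DMSO and from 93.9 and 85.2 to 128 and 126 with eugenol.

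Of the 4 listed genes at the entry to the ER, 3 were called lower and 0 higher with DMSO, where 39.2% of protein-coding genes in any table were called lower. Sec61a1 and Sec61b, the channel through which proteins enter the ER, fell from 228 and 262 to 169 and 183 RPM with DMSO and from 293 and 248 to 181 and 177 with eugenol, and from 46.8 and 54.3 to 36.1 and 36.6 RPM with DMSO and from 50.2 and 54.1 to 36.2 and 37.4 with eugenol. Sec11a, the catalytic subunit of signal peptidase, fell from 80.1 and 83.002 to 61.4 and 59.2 RPM with DMSO and from 77.3 and 73.1 to 59.8 and 61.6 with eugenol, the latter a call lost with DESeq2 size factors. Of 5 Rabs of exocytosis 2 were called lower with DMSO and 0 higher, beside the same 39.2%. Rab13, of cell junctions, fell from 50.1 and 46.4 to 21.8 and 22.8 RPM with DMSO and from 47.2 and 48.9 to 23.7 and 25.1 with eugenol, and Rab10, of GLUT4 delivery, from 198 and 192 to 172 and 157 RPM with DMSO and from 201 and 187 to 159 and 151 with eugenol, with the DMSO call lost under TMM, under DESeq2 size factors and without ischemia DMSO replicate 2 (-0.18 in edgeR). Rab3a, of secretory vesicles, and Rab3ip, an activator of Rab8, were called lower with eugenol, Rab3a from 16.4 and 18.9 to 13.7 and 10.2 RPM and Rab3ip from 45.5 and 44.3 to 30.6 and 29.8 RPM. The Rab3a call was lost without replicate 2 of ischemia eugenol (-0.36) or of normoxia eugenol (-0.46) in edgeR, and with DESeq2 size factors.

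Of the remaining Rabs, Rab34 and Rab40c were called higher and Rab23 and Rab28 lower with DMSO. Rab23, a regulator of Hedgehog signalling at the cilium, went from 43.3 and 49.3 to 35.95 and 34.2 RPM with DMSO and from 51.5 and 47.9 to 32.05 and 33.8 with eugenol, and Rab24, of autophagy, was called higher with eugenol, from 46.1 and 48.5 to 68.8 and 66.3 RPM. The annotation of Rab40c overlaps a gene on the opposite strand, and the strand of counting is not given in the sources used here. Sec14l5 had 0 reads in both normoxia DMSO libraries and 12 and 18 in ischemia DMSO, and no fold change is given. Sec62, Rab27a and Rab3d were listed in the mixed comparison alone and did not pass, and Rab3il1 did not pass with eugenol (adjusted p = 0.0687 in the authors' deposited table).

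Eugenol against DMSO changed no member past the threshold at either oxygen level. The authors' deposited tables listed 1 member in ischemia, Sec16a at a log2 fold change of 0.20, and 1 in normoxia, Sec14l1 at 0.23, each with an adjusted p of 1. Called genes made up 0.121% of the 18972 genes adjusted in ischemia and 0.181% of the 14362 in normoxia. In the edgeR refit of the 75 members with counts in all libraries, 0 were called in ischemia, with 0 at an unadjusted p under 0.05, and DESeq2 gave 0 and 0. In normoxia edgeR and DESeq2 called 0, with 3 and 2 at an unadjusted p under 0.05. The 3 were Sec24a at 0.30 ± 0.09, Sec16a at 0.21 ± 0.09 and Snx30 at 0.37 ± 0.15 (log2 ± SE, edgeR adjusted p = 0.988 for each). Over all 6582 genes the called shares in ischemia were 0.0152% by edgeR and 0.0912% by DESeq2, with 3.68% and 2.78% at an unadjusted p under 0.05, and in normoxia 0.0456% and 0.167%, with 4.16% and 2.84%.

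In single libraries these differences were small. Sec24a had 37.6 and 36.1 RPM with DMSO against 42.99 and 47.9 with eugenol in normoxia, and Sec16a 125 and 133 against 146 and 152, so the groups did not overlap. In ischemia Sec24a had 72.5 and 67.7 RPM with DMSO against 74.8 and 73.04 with eugenol. The median width of the 95% interval on each side of a member's estimate was 0.22 on the log2 scale at both oxygen levels, and the interval lay within a 2-fold change either way for 74 of 75 members. It lay within a 1.5-fold change for 70 of them in ischemia and 67 in normoxia. A missed threshold does not show that the groups are alike, and differences inside these intervals may have been missed with 2 libraries a group.

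Whether eugenol altered the oxygen effect was tested as an interaction over all 8 libraries. For 0 of 75 members did it pass in edgeR or DESeq2, with 1 and 0 at an unadjusted p under 0.05, and over all 6582 genes edgeR called 0.0152% and DESeq2 0.076%, with 3.59% and 2.14% at an unadjusted p under 0.05. The 1 was Snx30, whose oxygen effect with eugenol differed from that with DMSO by -0.48 ± 0.20 on the log2 scale (edgeR, unadjusted p = 0.0349, adjusted p = 1). The median 95% interval reached 0.31 to each side. The mixed comparison, ischemia eugenol against normoxia DMSO, uses libraries of both comparisons above and adds none. It listed 93 members and called 38 higher and 35 lower, 70.9% of the set, beside 70.8% of protein-coding genes in any table (33.4% higher and 37.5% lower) and 39.3% of those adjusted. Its values stand next to the other 2 for Rab15 (-2.78, -2.54 and -2.51), Vps11 (0.80, 0.83 and 0.78) and Sec31a (0.80, 0.60 and 0.75) in the authors' deposited tables, for DMSO, eugenol and mixed in that order.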

How the data were processed

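Total RNA of the 8 libraries was sequenced after TruSeq library preparation on an Illumina HiSeq, per the labels' protocols. HISAT2, StringTie 1.3.3b, edgeR and DESeq2 are named in the submitters' processing notes, with no role given, and the genome build, the annotation and the strand setting are not given in the sources used here. The deposited tables hold whole-number read counts per gene, FPKM and a signal, the count divided by 1 size factor per library and table, all made by the authors per the file headers. They also hold the authors' log2 fold change, p-value and adjusted p-value, and only genes with an unadjusted p under 0.05 in that comparison. A gene's count did not differ between tables, and no pair of libraries had identical counts. Table columns carry codes that were matched to groups through the pairs of groups each table compares. The digit in a code was read as the replicate number.

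Calls are the authors' adjusted p under 0.05. RPM was computed from the deposited counts and the library totals behind FPKM. As alternatives, edgeR 4.0.16 (quasi-likelihood test) and DESeq2 1.42.0 (Wald test) were run in R 4.3.3 on the 6582 genes with counts in all 8 libraries, with Benjamini-Hochberg adjustment. These tests were first tested on simulated data. Since these genes had been selected by the authors' p, adjusted p-values of the refits of the oxygen comparisons are not independent of that selection. The refits were repeated with other scalings (TMM, and the size factors of DESeq2), with genes of at least 5 RPM, an adjusted p under 0.01, a fold of at least 2, the groups compared alone, the replicate number as a block, and each library left out. The TMM and DESeq2 factors were computed from these same 6582 genes. Intervals are 95% intervals of the edgeR fit.

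Members named by rule were the coat and retromer genes and a few Rabs, plus up to 3 called members per role and comparison with the largest log2 fold change, non-overlapping libraries and at least 5 RPM, 71 in all. The other members, the list genes named, and the paralogue shares of Rab4, Rab7, Snx5 and Vps37 were chosen after their values were seen. Members and lists were chosen with earlier results of these data known. Start windows of 300 bases, 250 before and 50 after the start, came from RefSeq GRCr8, for 89 members, and 14 had none.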

Additional observations from a re-analysis of the deposited data

Results flagged for a closer look

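In 3 of the 75 members with counts in all 8 libraries, eugenol moved every library one way in normoxia and the other way in ischemia, 4.0% of them beside 4.62% of the 6582 genes fitted. The difference between these eugenol effects, ischemia less normoxia, was -0.18 ± 0.12 for Rab11fip5, -0.248 ± 0.13 for Rab3ip and 0.312 ± 0.33 for Rab7b (log2 ± SE, edgeR interaction). The eugenol effects were -0.08 in ischemia and 0.10 in normoxia for Rab11fip5, -0.10 and 0.15 for Rab3ip, and 0.21 and -0.10 for Rab7b. The interaction did not pass for any of the 3, with unadjusted p of 0.148, 0.0762 and 0.357 in that order and an adjusted p of 1 each (edgeR). With 2 libraries a group, single libraries set these directions, and no cause was tested.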

How the results depend on the processing

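Requiring a fold of at least 2 cut the called members from 83 to 20 with DMSO, from 70 to 12 with eugenol and from 73 to 15 in the mixed comparison. That left 19.4%, 11.7% and 14.6% of the members, beside 28.9%, 27.6% and 28.0% of protein-coding genes in any table. Under it, endosomal members called higher and lower were 5 and 8 with DMSO and 2 and 5 with eugenol, and ER-Golgi members 1 and 2 in both comparisons. An adjusted p under 0.01 left 22 endosomal members higher and 14 lower with DMSO, and 9 and 6 ER-Golgi members. In all it left 35.0% of members higher and 23.3% lower, beside 28.8% and 32.4% of protein-coding genes in any table. ER-Golgi members called higher with DMSO numbered 7 in every refit, against 11 in the authors' deposited table, since 17 ER-Golgi members had counts in all 8 libraries; DESeq2 size factors left 6 called lower. Under DESeq2 size factors the eugenol comparison turned from lower to higher for Rab1a (0.0077, adjusted p = 0.928), Rab2a (0.0185, adjusted p = 0.841) and Rab7a (0.0166, adjusted p = 0.849) in edgeR, none of them called. Of 1920 single-gene values under the alternatives, 1824 kept direction and side of the threshold, 60 passed it newly, 33 lost it and 3 reversed.

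The edgeR refits that left out each library in turn covered the 75 members with counts in all 8 libraries. The genes fitted had been preselected by the authors' p. With all libraries in, 99.5% of the 6582 genes were already called with DMSO and 99.2% with eugenol. Calls that stayed without a library are therefore not read as a sign of stability, and their number is not given. The same holds for the single-gene values above that kept their side of the threshold. Without a library of the groups compared, the median log2 fold change of all genes fitted lay between -0.304 and -0.284 with DMSO, beside -0.311. With eugenol it lay between -0.297 and -0.261, beside -0.303. Named members that lost a call without a library were Rab10, Rab20, Rab2a, Rab7a and Snx18 with DMSO and Rab1a, Rab3a and Snx18 with eugenol, with the values given beside each.

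Same-numbered libraries did not deviate together: the correlations of their deviations, between -0.246 and 0.11 over 5863 genes, do not pair the samples. With the replicate block, ER-Golgi members called higher with DMSO were 7, and no named call was lost. With the numbers crossed, an alternative chosen after seeing the data, normoxia eugenol against normoxia DMSO called 14 genes higher and 16 lower of 6582 and 0 members. Depth of 14.7 to 17.7 M reads limits members with few reads, such as Rab11fip4 and Sec14l5.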
